A study of Mus musculus with 6 samples.

Results

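The SLC25 genes encode the mitochondrial carrier family, and they were taken here as the rows of the deposited table whose symbol starts with Slc25a and a digit. There were 40 such genes among 13839 in the table, and all 40 gene IDs were found under the same symbols in the RefSeq annotation of GRCm38. RNA sequencing was done on MLL-ENL-ERtm cells, a mouse line with an MLL-ENL fusion, labelled acute monocytic leukemia. The 3 shTet1 libraries came from cells with a retroviral short hairpin RNA against Tet1 (a construct given as a+b), and the 3 shNS libraries from cells with a scramble hairpin. Cells of both groups went through puromycin selection at 1 µg/mL for 3 passages and adaptation to SILAC medium, and reads were single-end and 51 bp long. With 1 Tet1 construct in 1 line, an effect of the hairpin other than on Tet1 cannot be told apart from that of Tet1 loss.

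Mitochondrial carriers are small proteins that span the inner mitochondrial membrane and exchange one metabolite for another. Each binds its substrate in a central cavity that opens in turn to the intermembrane space and to the matrix. Through them ADP, phosphate, keto acids, amino acids, nucleotides, cofactors and iron enter the organelle, and ATP, citrate and aspartate leave it. In blood cells the family is known for the mitoferrins, which bring in iron for heme and iron-sulfur clusters, and for the glycine carrier Slc25a38, which serves heme synthesis.

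The libraries held between 15873632 and 18592139 reads on the genes of the table. Levels are in FPKM, which corrects a gene's reads for its length and for the size of the library, and 3 values in a row stand for replicates 1, 2 and 3 of a group. Tet1 was at 0.489, 0.392 and 0.446 in shNS and, at 29.6% of that mean, at 0.0982, 0.155 and 0.139 in shTet1. The median log2 change of all 11646 genes tested was −0.13, and scaling the libraries by the median of ratios moved it by 0.12, so each change below is also given after that scaling where the call differs. Of 13 monocyte and macrophage markers 12 were in the table, all 12 were tested, and 11 rose and 0 fell. Their summed level was 3300 to 3820 FPKM in shNS and 11100 to 16900 FPKM in shTet1, where replicate 3 was lowest. Most of that sum is Lyz2, at 2790 to 3220 FPKM in shNS and 9460 to 14800 FPKM in shTet1. The part of the marker shift in the carrier results was not tested. Of 8 erythroid markers 6 were in the table and 2 tested, and both (Tfrc and Hemgn) fell. Of the T cell, B cell and fibroblast markers, 1 each was in the table and none reached 1 FPKM in 3 libraries.

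The carriers differed widely in level. Genes of the same protein fold under other symbols fall outside the symbol rule, and outside the order, shares and sums given here. Among them Ucp2 averaged 515 FPKM over all libraries, above the 403 FPKM of Slc25a5. The summed FPKM of these other genes was 485, 558 and 493 in shNS and 577, 788 and 767 in shTet1, higher in shTet1. Slc25a5, an ADP/ATP carrier, stood highest, followed by the phosphate carrier Slc25a3, the ADP/ATP carrier Slc25a4 and Slc25a39, a carrier linked to mitochondrial glutathione, and this order held in each of the 6 libraries. Slc25a11, Slc25a1 and Slc25a12 came next, with ranges that overlapped each other. Of the 40 members 19 averaged more than 10 FPKM and 3 more than 100 FPKM. Slc25a5, Slc25a3 and Slc25a4 together made up 62.7, 62.7 and 62.5% of the summed FPKM of the 40 members in shNS, and 61.1, 59.3 and 61.6% in shTet1. The summed FPKM of the 40 members was 1369, 1391 and 1369 in shNS and 1191, 1178 and 1262 in shTet1, so the groups did not overlap in the deposited FPKM. That holds for the genes under the symbol rule only, since the sum of the other genes above went the other way. After median-of-ratios scaling, a setting added for these sums after the data were seen, they were 1288, 1355 and 1296 in shNS and 1238, 1271 and 1296 in shTet1, and the groups overlapped.

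**Figure D1:**
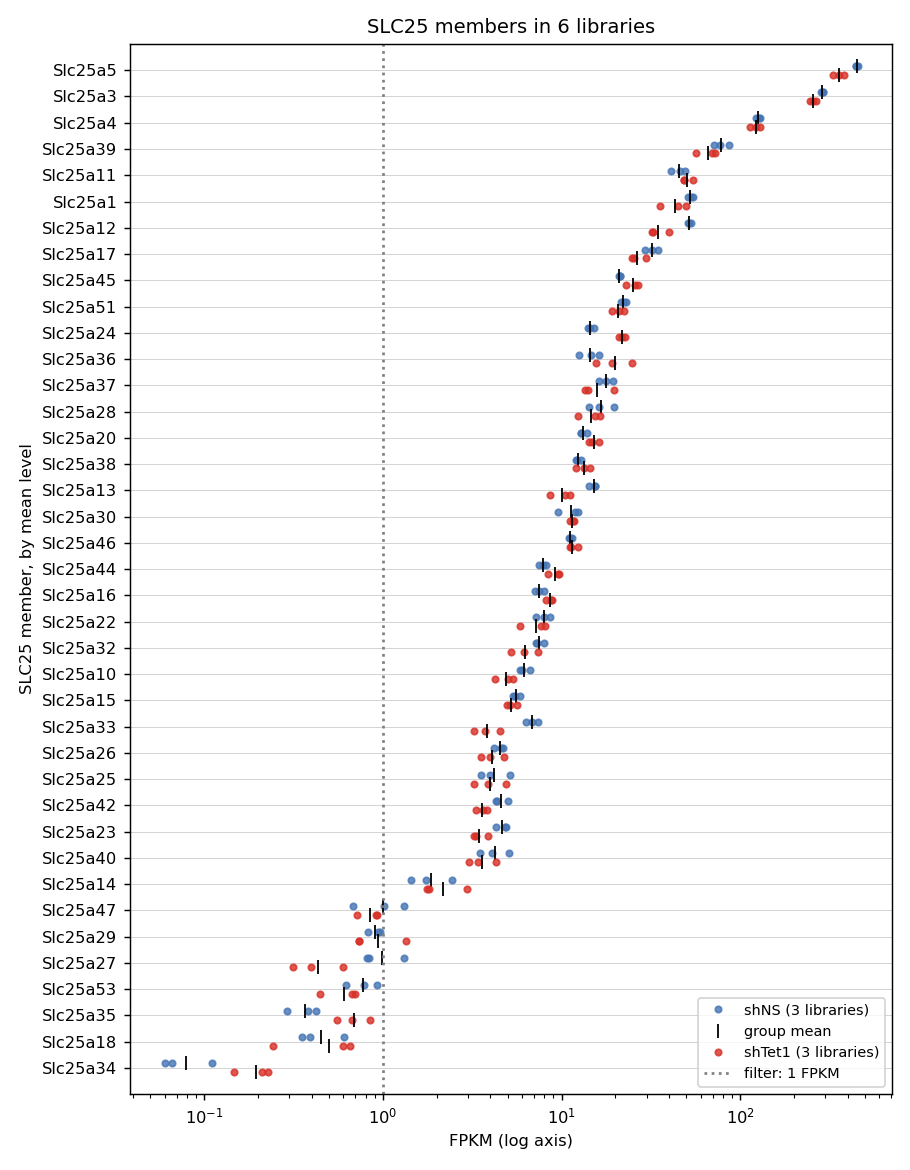
FPKM of 39 of the 40 SLC25 members in each library on a log axis, with shNS in blue, shTet1 in red and the group means as black ticks. Slc25a5 stands at the top near 448 FPKM in shNS, and the 7 members at the bottom, which did not reach the dotted line at 1 FPKM in 3 libraries, lie between 0.0601 and 1.34 FPKM.

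Most carriers changed little when compared with the rest of the transcriptome. Of 40 members, 33 reached at least 1 FPKM in at least 3 libraries and were tested with limma on log2(FPKM + 1), and 2 of them rose and 8 fell at adjusted p under 0.05, or 30.3%. The background was 53.1% of all genes tested (19.4% higher and 33.7% lower). After median-of-ratios scaling 7 members were higher and 4 lower, or 33.3%, where the background was 48.5% (24.8% higher and 23.7% lower). With the replicate number as a block, 5 were higher and 12 lower, or 51.5%, against a background of 64.2% (23.1% higher and 41.0% lower). The block together with scaling gave 8 higher and 5 lower, or 39.4%, against 60.3% (29.8% higher and 30.5% lower). With limma-voom on recovered reads 39 members could be tested, of which 3 were higher and 8 lower, or 28.2%, against 50.2% (18.6% higher and 31.6% lower). The authors' deposited table called 9 of the 40 members higher and 5 lower, or 35.0%, with a background of 45.8% of its genes (23.7% higher and 22.1% lower). Called shares of members were thus under those of all genes in each of these comparisons, and no test of that difference was made.

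The middle of the family lay where all genes lay: the median log2 change was −0.13 over the members tested and −0.13 over all genes, and −0.01 for both after scaling. The spread was narrower. The members' quartiles were −0.27 and 0.09, those of all genes −0.42 and 0.19, and 18.3% of all genes had a log2 change at least as large in size as the largest of any member tested (−0.71, Slc25a33). Groups did not overlap for 15 of 33 members (45.5%), 5 higher and 10 lower in shTet1, where the background was 61.8% (22.6% higher and 39.1% lower). Of the 10 members called, 6 were called under both scalings, 4 lower (among them Slc25a33, Slc25a12 and Slc25a13) and 2 higher (Slc25a24 and Slc25a45). In 6 of the 8 members that fell, shTet1 replicate 3 had the highest level of the 3 shTet1 libraries. Of the 11 monocyte and macrophage markers that rose, 9 were lowest in that library among the shTet1 libraries and 2 (Cd14 and Cd68) in replicate 1.

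**Figure D2:**
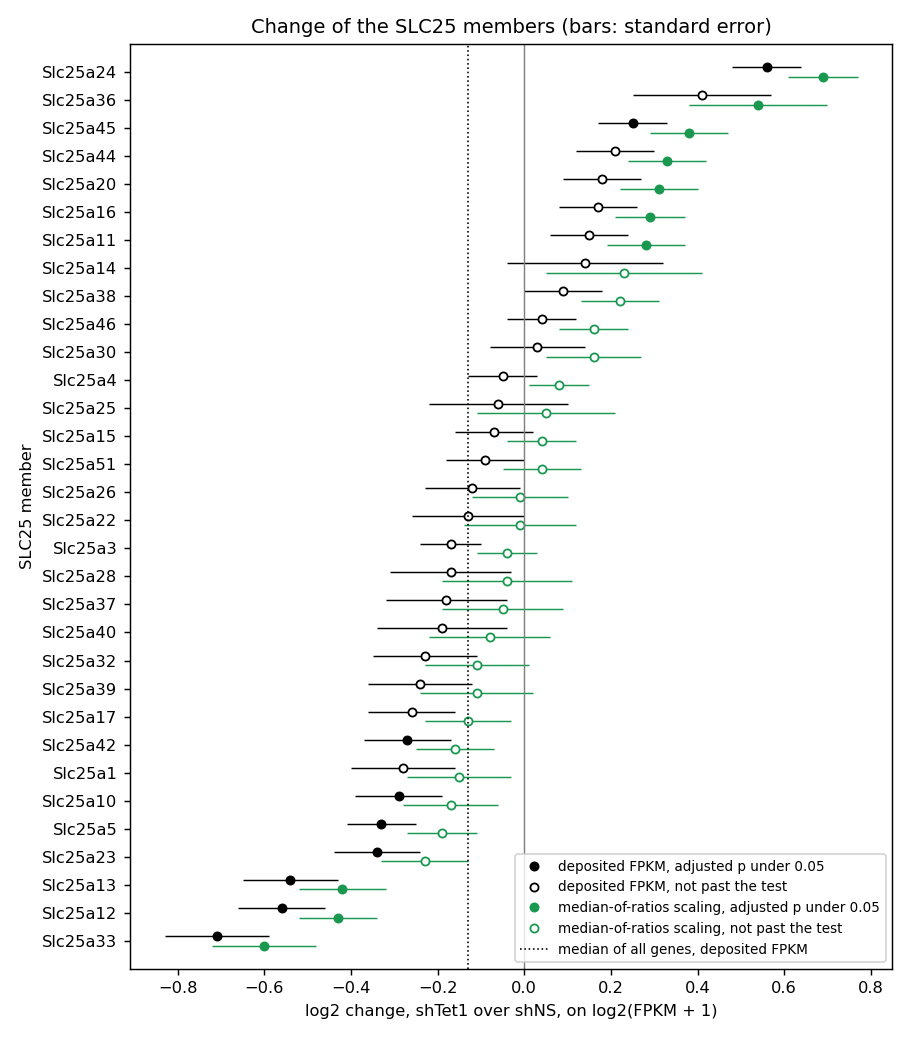
Log2 change of 32 of the 33 tested SLC25 members in shTet1 over shNS with its standard error, from the deposited FPKM (black) and after median-of-ratios scaling (green), with filled points past adjusted p 0.05. Slc25a33, Slc25a12 and Slc25a13 at the bottom and Slc25a24 and Slc25a45 near the top are filled in both colours, and the scaling moves the points to the right by about the shift of the all-gene median, 0.12.

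**Figure D3:**
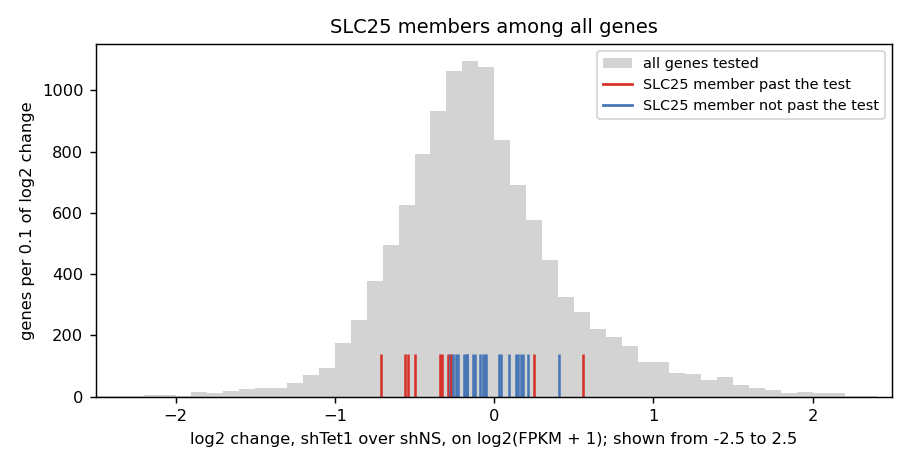
Number of genes per step of log2 change for all 11646 genes tested (grey), with each SLC25 member as a vertical line, red where past the test and blue where not. The members lie between −0.71 and 0.56, within the central part of the distribution.

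The counts of each class and list below stand against 33.7% of all genes lower and 19.4% higher, or 23.7% and 24.8% after scaling, and with so few genes a share near these is no result about the class.

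Carriers of ATP, ADP and phosphate included the most abundant members and went both ways. Of 6 tested, 1 rose and 2 fell. Slc25a24 (gene ID 229731, chromosome 3, 109123149 to 109168409, GRCm38), a calcium-regulated carrier that exchanges ATP-magnesium for phosphate, was at 14.1, 14.4 and 15.1 FPKM in shNS, against 21.1, 22.6 and 21.8 FPKM in shTet1. All 3 shTet1 libraries lay above all shNS libraries. Its rise in log2 was 0.56 ± 0.08 (SE; limma adjusted p = 0.000757), from 14.5 ± 0.508 to 21.8 ± 0.765 FPKM (SD, n = 3 each), the largest rise among the 33 members past the filter. The call held without any 1 library (limma adjusted p 0.000830 to 0.00547).

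Its paralogs moved otherwise. Slc25a23, a second calcium-regulated ATP-magnesium/phosphate carrier, was at 4.81, 4.88 and 4.30 FPKM in shNS and 3.87, 3.22 and 3.33 FPKM in shTet1. It fell in the deposited FPKM (log2 change −0.34 with SE 0.10; limma adjusted p = 0.0210). Scaling ended that call (−0.23, limma adjusted p = 0.0825), and so did leaving out 1 of 4 libraries: replicate 1 or 2 of shNS, or replicate 2 or 3 of shTet1 (limma adjusted p up to 0.0768). Slc25a25, the remaining tested carrier of this kind, was at 3.53, 3.96 and 5.13 FPKM in shNS and 3.23, 3.88 and 4.87 FPKM in shTet1, so that the groups overlapped and replicate 3 was highest in each. Its log2 change was −0.06 in the deposited FPKM and 0.05 after scaling (limma adjusted p 0.762 and 0.821). The span of Slc25a25 meets that of Naif1, which is also in the table.

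The ADP/ATP carriers bring ADP into the matrix in exchange for the ATP made there. Slc25a5 (gene ID 11740, chromosome X, 36795597 to 36798808) was at 445, 455 and 443 FPKM in shNS and 359, 331 and 383 FPKM in shTet1. Every shTet1 library lay below every shNS library, and the log2 change was −0.33 with SE 0.08 (limma adjusted p = 0.0112), or 79.9% of the shNS mean. The call ended after scaling (−0.19, adjusted p = 0.0757) but was present in the blocked fit of the scaled values (0.0395). RefSeq lists a pseudogene of this gene, and how the authors counted reads shared between near copies is not given in the sources used here. Slc25a4 (gene ID 11739, chromosome 8, 46207168 to 46211062), the ADP/ATP carrier of heart and muscle, was at 129, 127 and 123 FPKM in shNS and 122, 113 and 129 FPKM in shTet1. These groups overlapped, and its log2 change of −0.05 became 0.08 after scaling (limma adjusted p 0.588 and 0.392). The phosphate carrier Slc25a3 was at 284, 289 and 289 FPKM in shNS and 246, 254 and 264 FPKM in shTet1. Although its groups did not overlap, its log2 change of −0.17 was not past the test (SE 0.07, limma adjusted p = 0.0706) except with the replicate block (0.0271) and without shTet1 replicate 3 (0.0446), and it was −0.04 after scaling.

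Among carriers of nucleotides, cofactors and vitamins, 0 of 9 rose and 3 fell, a share of falls near that of all genes (33.7%). Slc25a33 and Slc25a36 are paralogs that carry pyrimidine nucleotides into mitochondria, where they serve DNA and RNA synthesis. Slc25a33 (gene ID 70556, chromosome 4, 149744036 to 149774267) was at 6.36, 6.85 and 7.35 FPKM in shNS and 3.24, 3.74 and 4.5 FPKM in shTet1, with no overlap. Its log2 change was −0.71 with SE 0.12 (limma adjusted p = 0.00174; −0.60 after scaling, adjusted p = 0.00416), the largest fall among the 33 members past the filter, to 55.8% of the shNS mean. Slc25a36 (gene ID 192287, chromosome 9, 97075281 to 97111041) was at 16.2, 12.6 and 14.7 FPKM in shNS and 24.7, 19.2 and 15.6 FPKM in shTet1. It was higher in shTet1 in each of the 3 same-numbered pairs, but shTet1 replicate 3 lay within the shNS range. Its log2 change of 0.41 was not past the test in the deposited FPKM (SE 0.16, limma adjusted p = 0.0689), and it was past it after scaling (0.54, adjusted p = 0.0283), with the replicate block (0.0187) and without shTet1 replicate 3 (0.0172).

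The promoters of this pair are shown because the ratio of the paralogs did not overlap between groups and both hold CACGTG, the E-box that MYC binds with MAX. Myc itself fell from 78.5 ± 4.78 to 42.3 ± 2.16 FPKM (log2 change −0.88, limma adjusted p = 0.000161), and any part of that fall in the carrier results was not tested. The bases lie before the annotated start, are read 5′ to 3′ on the minus strand (RefSeq, GRCm38.p6), and have the E-box in capitals.
Slc25a33, chr4:149774268-149774335: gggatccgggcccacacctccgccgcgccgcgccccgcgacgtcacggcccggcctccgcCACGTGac
Slc25a36, chr9:97111163-97111288: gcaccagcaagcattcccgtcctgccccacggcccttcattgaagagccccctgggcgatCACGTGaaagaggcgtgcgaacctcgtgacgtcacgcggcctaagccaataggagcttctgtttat
The E-box began 8 bases before the start of Slc25a33 and 187 bases before that of Slc25a36. Promoters of 300 bases were found for 31 members, and 7 of their 40 promoters (17.5%, from 6 genes) held CACGTG on either strand, against 7.15% of all promoters and 9.66% of those of genes in the table. The 6 genes were Slc25a1, Slc25a13, Slc25a14, Slc25a15, Slc25a33 and Slc25a36, of which Slc25a13 and Slc25a33 fell and the others were not past the test in the deposited FPKM. That share of falls is near the 33.7% of all genes, so it is no result about genes with an E-box. The promoters of Slc25a14 that held it share 1 E-box. CCAAT was found in 52.5% of the members' promoters, 37.4% of all and 38.2% of those of genes in the table. The palindromic NRF1 motif was found in 0 of 40, 0.971% of all and 1.97% of those of genes in the table. At so low a background, its absence from 40 promoters is no result about the members. The letters of no motif contain those of another, and a match is not evidence of binding.

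Slc25a42, a coenzyme A carrier, was at 4.34, 4.32 and 5.04 FPKM in shNS and 3.65, 3.31 and 3.85 FPKM in shTet1. It fell by a small margin (−0.27, SE 0.10, limma adjusted p = 0.0474). That call ended after scaling (−0.16, adjusted p = 0.175), without the filter (0.0593), with limma-voom on the reads recovered from the FPKM (0.0512) and without shNS replicates 1, 2 or 3 or shTet1 replicates 1 or 2 (up to 0.182). Slc25a16 was at 7.5, 7.06 and 8.01 FPKM in shNS and 8.76, 8.18 and 8.82 FPKM in shTet1, without overlap, and was past the test only after scaling (0.29, limma adjusted p = 0.0178; 0.17 and 0.128 in the deposited FPKM). The peroxisomal cofactor carrier Slc25a17 (−0.26), the folate and flavin carrier Slc25a32 (−0.23), the S-adenosylmethionine carrier Slc25a26 (−0.12) and the NAD carrier Slc25a51 (−0.09, and 0.04 after scaling) were not past the test in the deposited FPKM or after scaling. Slc25a17 was past it with the replicate block (limma adjusted p = 0.0123, and 0.131 with the block and scaling) and without shTet1 replicate 1 (0.0178), and Slc25a32 without shTet1 replicate 3 (0.0325). The span of Slc25a26 meets that of Lrig1, which is also in the table.

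Of 3 carriers of di- and tricarboxylates tested, 0 rose and 1 fell. Slc25a10, which exchanges malate or succinate for phosphate, was at 5.98, 6.62 and 5.83 FPKM in shNS and 4.26, 5.0 and 5.32 FPKM in shTet1. It fell (log2 change −0.29 with SE 0.10; limma adjusted p = 0.0451), which ended after scaling (−0.17, adjusted p = 0.210), without the filter (0.0592) and without shNS replicates 1, 2 or 3 or shTet1 replicates 1 or 2 (up to 0.148). The citrate carrier Slc25a1, which supplies citrate for lipid synthesis in the cytosol, was at 50.7, 52.7 and 54.2 FPKM in shNS and 35.6, 44.7 and 49.7 FPKM in shTet1. The shTet1 libraries were all lower but spread widely, and the log2 change of −0.28 was not past the test (SE 0.12, limma adjusted p = 0.0816) except with the replicate block (0.0245) and without shTet1 replicate 3 (0.0238). The oxoglutarate carrier Slc25a11, a part of the malate-aspartate shuttle, was at 49.2, 46.3 and 41.0 FPKM in shNS and 54.4, 48.7 and 48.5 FPKM in shTet1. It was higher in all 3 same-numbered pairs, although the groups overlapped. It was past the test after scaling (0.28, limma adjusted p = 0.0388) and not in the deposited FPKM (0.15, adjusted p = 0.209). Its span meets that of Rnf167, which is also in the table, and the strand setting of the counting is not given in the sources used here.

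Of 8 carriers of amino acids and carnitine tested, 1 rose and 2 fell, or 3 and 2 after scaling. Their median log2 change was 0.01, where that of all genes was −0.13. The 2 that fell were the aspartate-glutamate carriers. These calcium-regulated proteins export aspartate in exchange for glutamate and a proton, the other arm of the malate-aspartate shuttle. Slc25a12 (gene ID 78830, chromosome 2, 71274270 to 71367781) was at 50.9, 52.7 and 51.5 FPKM in shNS and 32.0, 32.6 and 39.9 FPKM in shTet1. Slc25a13 (gene ID 50799, chromosome 6, 6041218 to 6217304) was at 15.4, 15.4 and 14.3 FPKM in shNS and 10.5, 8.59 and 11.1 FPKM in shTet1. Both had shTet1 replicate 3 nearest to shNS and no overlap between groups. Slc25a12 fell by 0.56 (SE 0.10, limma adjusted p = 0.00225; −0.43 after scaling, adjusted p = 0.00709) and Slc25a13 by 0.54 (SE 0.11, limma adjusted p = 0.00370; −0.42 after scaling, adjusted p = 0.00925), to 67.4 and 66.8% of their shNS means. Both calls held without any 1 library (limma adjusted p up to 0.0134 and 0.0173).

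The rise in this class was that of Slc25a45, and 3 members were higher after scaling. Slc25a45 (gene ID 107375, chromosome 19, 5877801 to 5885768) was at 20.9, 21.2 and 21.3 FPKM in shNS and 25.8, 26.9 and 23 FPKM in shTet1. It rose (log2 change 0.25 with SE 0.08; limma adjusted p = 0.0393; 0.38 after scaling, adjusted p = 0.0118). The call in the deposited FPKM was present without shTet1 replicate 3 and ended without any 1 of the other libraries (up to 0.132). Slc25a20, the carnitine/acylcarnitine carrier that brings fatty acids to β-oxidation, was at 12.9, 13.9 and 12.8 FPKM in shNS and 14.2, 16.2 and 14.8 FPKM in shTet1. Slc25a44, a carrier of branched-chain amino acids, was at 7.45, 8.19 and 7.87 FPKM in shNS and 8.40, 9.68 and 9.53 FPKM in shTet1. Neither overlapped between groups, and neither was past the test in the deposited FPKM (log2 changes 0.18 and 0.21, limma adjusted p 0.109 and 0.0873). After scaling both were (0.31 and 0.33, limma adjusted p 0.0283 and 0.0231), as they were with the replicate block (0.0444 and 0.0368). The glycine carrier Slc25a38 (0.09), the ornithine carrier Slc25a15 (−0.07, and 0.04 after scaling) and the glutamate carrier Slc25a22 (−0.13) were not past the test in the deposited FPKM or after scaling. Slc25a38 was past it with the replicate block and scaling together (0.22, limma adjusted p = 0.0414).

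Of 4 carriers of iron and glutathione, 0 rose and 0 fell, and their log2 changes lay between −0.24 and −0.17. The mitoferrin Slc25a37, the iron carrier that developing red cells depend on, was at 19.3, 16.3 and 17.7 FPKM in shNS and 19.6, 14 and 13.6 FPKM in shTet1. Its paralog Slc25a28, the mitoferrin of other tissues, was at 14.3, 16.1 and 19.7 FPKM in shNS and 12.4, 16.4 and 15.4 FPKM in shTet1. Both overlapped between groups. Slc25a37 was past the test only without shTet1 replicate 1 (−0.34, limma adjusted p = 0.0186). Slc25a39 was at 71.3, 86.6 and 77.3 FPKM in shNS and 56.4, 72.7 and 69.9 FPKM in shTet1. Replicate 1 was its lowest library in each group. It was lower in shTet1 in all 3 same-numbered pairs, and its log2 change of −0.24 (limma adjusted p = 0.119) was past the test only with the replicate block (0.0139). Slc25a40, its paralog, was at 5.11, 3.48 and 4.07 FPKM in shNS and 4.31, 3.03 and 3.40 FPKM in shTet1, with replicate 1 highest in each group.

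The uncoupling protein relatives Slc25a30 and Slc25a14 had log2 changes of 0.03 and 0.14, and Slc25a46, an outer membrane protein of mitochondrial shape, of 0.04; none was past the test (limma adjusted p 0.805, 0.538 and 0.705). The 7 members below the filter lay between 0.0601 and 1.34 FPKM, on 3 to 66 reads per library, and were not tested with limma at that filter. Slc25a27, an uncoupling protein relative of the brain, had 66, 37 and 38 reads in shNS and 29, 15 and 17 in shTet1, with no overlap, and limma-voom on the recovered reads gave a log2 change of −1.19 (SE 0.33, adjusted p = 0.0153). Slc25a35 had 13, 13 and 9 reads in shNS and 28, 22 and 16 in shTet1, and limma-voom gave 0.89 (SE 0.33, adjusted p = 0.0452). Its span meets that of Rangrf. Slc25a34 had 3, 5 and 3 reads in shNS and 11, 7 and 9 in shTet1 and was under the minimum for either test. Slc25a47, Slc25a29, Slc25a53 and Slc25a18 overlapped between groups, and the span of Slc25a53 meets that of Zcchc18. Slc25a29 and Slc25a47 are neighbours on chromosome 12 (108825878 to 108835876 and 108849833 to 108856815).

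Ratios between paralogs within a library do not depend on how libraries are scaled, and 8 pairs were compared by description, since 3 libraries against 3 cannot give an exact permutation p under 0.1. The ratio of Slc25a5 to Slc25a4 was 3.45, 3.58 and 3.62 in shNS and 2.93, 2.92 and 2.97 in shTet1, so it was lower in every shTet1 library and the shTet1 libraries agree closely. The ratio of Slc25a36 to Slc25a33 was 2.55, 1.85 and 2.0 in shNS and 7.63, 5.14 and 3.46 in shTet1. Here the means were 2.13 ± 0.371 and 5.41 ± 2.10 (SD, n = 3 each), and the shTet1 libraries spread widely. The ratio of Slc25a24 to Slc25a23 was 2.93, 2.94 and 3.51 in shNS and 5.44, 7.01 and 6.54 in shTet1, and that of Slc25a24 to Slc25a25 also had no overlap (3.52 ± 0.535 and 5.61 ± 1.04). Both hold Slc25a24, and the ratio before them holds Slc25a33, so they restate in part the changes given above. The ratio of Slc25a12 to Slc25a13 was 3.44 ± 0.148 in shNS and 3.48 ± 0.376 in shTet1, with overlap. Likewise the mitoferrin pair, Slc25a37 to Slc25a28, overlapped (1.09 ± 0.234 and 1.11 ± 0.413), as did Slc25a39 to Slc25a40 and Slc25a30 to Slc25a14. The ratio of Slc25a37 to Slc25a28 was highest, and that of Slc25a39 to Slc25a40 lowest, in replicate 1 of each group.

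**Figure D4:**
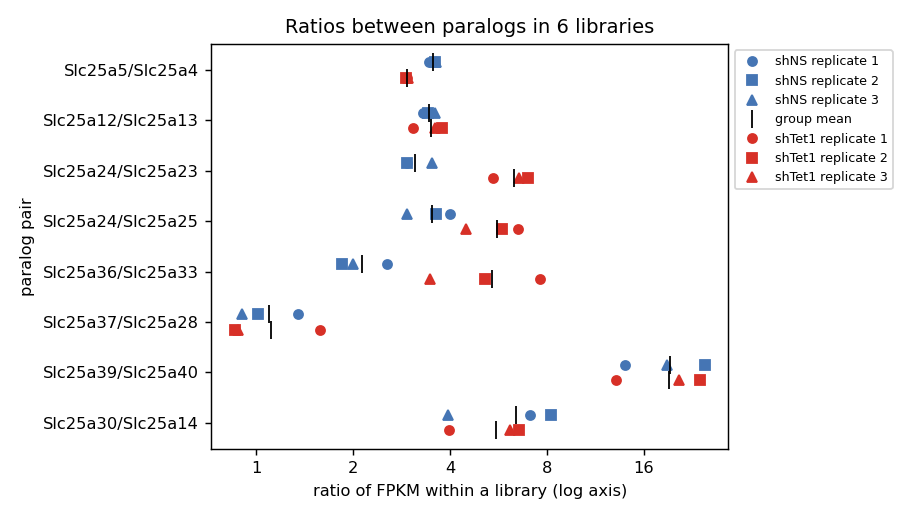
Ratio of FPKM between paralogs in each library on a log axis, with shNS in blue, shTet1 in red, the replicate number by marker shape and the group means as black ticks. In 4 of the 8 pairs the groups do not overlap, and the Slc25a36/Slc25a33 and Slc25a24/Slc25a23 pairs are the farthest apart. Of single genes tested 61.8% did not overlap, and no such share was computed for ratios, so the count is no result about the pairs.

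Genes related to the carriers were counted for comparison. Among proteins with the same fold under other names, Ucp2, the uncoupling protein of immune cells, was at 382, 457 and 393 FPKM in shNS and 490, 701 and 665 FPKM in shTet1. In shTet1 that was above the level of any gene taken by the symbol rule, which leaves Ucp2 out by its name alone. It rose by 0.58 (SE 0.15, limma adjusted p = 0.0118; 0.71 after scaling) and was the only 1 of the 3 such genes tested that passed. The carrier-like outer membrane genes Mtch1 and Mtch2 did not. Of 16 other inner membrane transporter genes tested, 4 rose and 2 fell, or 4 and 1 after scaling. Ccdc109b, which encodes the inhibitory subunit of the calcium uniporter, rose from 3.94 ± 0.515 to 11.3 ± 0.382 FPKM (1.32, limma adjusted p = 7.77e-05). Its pore-forming partner Mcu was at 8.96 ± 0.824 and 7.70 ± 0.126 FPKM (−0.19, limma adjusted p = 0.108). The pyruvate carrier subunit Mpc2 rose from 31.4 ± 3.06 to 42.9 ± 3.66 FPKM (0.44, limma adjusted p = 0.00819), while Mpc1 was at 44.2 ± 1.13 and 45.6 ± 3.37 FPKM (0.04, adjusted p = 0.670). The serine carrier Sfxn1 fell from 59.2 ± 2.09 to 37.9 ± 4.87 FPKM (−0.64, limma adjusted p = 0.00152), and its relative Sfxn5 rose by 0.83.

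The machinery that imports carriers into the inner membrane was lower for the most part. Of 15 import genes tested, 10 fell and 1 rose, or 8 and 1 after scaling, with a median log2 change of −0.45 (−0.32 after scaling), where the background was 33.7% lower and 19.4% higher. The intermembrane chaperone Timm9, which escorts carriers to the inner membrane, fell from 24.6 ± 1.23 to 13.2 ± 2.79 FPKM (−0.87, limma adjusted p = 0.00179), and Timm8a1 by 0.79 on the log2 scale. Tomm5, a small subunit of the outer membrane pore, fell by 0.62 and Agk, a subunit of the carrier translocase, by 0.66. The one import gene that rose was Timm10b (0.63), which was named after its value was seen. Among 4 outer membrane genes, the channel Vdac3 fell (−0.55) and the translocator protein Tspo rose (0.83). Of 8 enzymes tested that use the malate-aspartate shuttle and citrate, 5 fell and 1 rose, or 3 and 1 after scaling, where 33.7% and 23.7% of all genes were lower: the aminotransferase Got1 fell by 0.52 and the malate dehydrogenase Mdh2 by 0.57, and the cytosolic aconitase Aco1 rose by 0.35. Of 14 heme and iron-sulfur genes tested, 6 fell and 1 rose, or 3 and 3 after scaling, the latter near the shares of all genes (23.7% lower and 24.8% higher). The transferrin receptor Tfrc fell by 1.03 and Alad by 0.69, and the ferrochelatase Fech rose by 0.42.

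**Figure D5:**
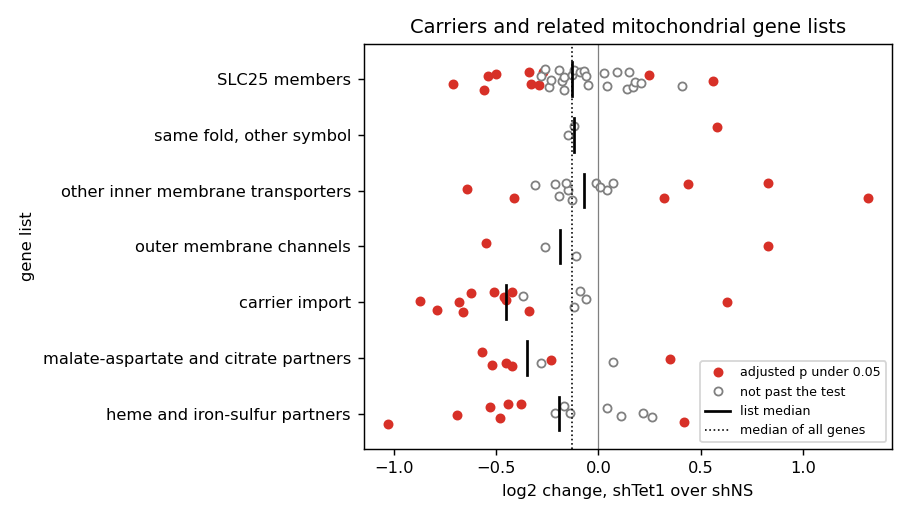
Log2 change in shTet1 over shNS of each tested gene in the carrier family and in 6 related lists, with red points past adjusted p 0.05, open points not past it, black bars for list medians and a dotted line for the all-gene median of −0.13. The carrier family centres on the dotted line, and the carrier import list has its median at −0.45.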

How the data were processed

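For the 6 libraries 1 table was used. Its library columns are FPKM as deposited, made by the authors by scaling reads by gene length and library size; the unit was read from the values, since no header names it. The submitters' processing notes name the build GRCm38, and the sources used here do not give the aligner, the counter or the authors' test. The deposited group means (a signal, reads per size factor), the fold change (a ratio), its log2 value and the p-value and adjusted p-value are the authors', per the file headers. Whole reads were recovered from FPKM and these means for 100% of the values, within 0.01 read, and no gene of the table had a mean under 3.997.

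The main test was limma 3.58.1 (R 4.3.3) with its trend option, on log2(FPKM + 1). It took genes that reached 1 FPKM in 3 or more libraries, Benjamini-Hochberg adjusted over all 11646 genes, two-sided, threshold 0.05, so changes of genes with low FPKM are understated. Errors are SD over 3 libraries or limma's SE. Alternatives were a pseudocount of 0.1, no filter, a filter of 5 FPKM, median-of-ratios scaling, limma-voom on the recovered reads (at least 10 in at least 3 libraries), the replicate block, and leaving out each library. Scripts were tested on simulated data. After subtraction of the group means, libraries with the same number correlated at 0.61, 0.36 and 0.21 across genes, each above 0.1, the bar set for taking the title numbers as pairs. Of the 6 combinations with different numbers, 2 also passed it, shNS 2 with shTet1 3 (0.34) and shNS 3 with shTet1 2 (0.14), so the pairing is not clear-cut for replicates 2 and 3. The sample descriptions give the same replicate number to all shNS samples and another to all shTet1 samples, unlike the titles. Passing the bar does not establish pairs, and fits with the replicate block rest on the title numbers. Separate cultures are not stated, and the spread behind the p-values may be technical.

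Positions and promoters came from RefSeq (GRCm38.p6). Members, lists and tests were chosen with earlier results of these data known, and the promoter motifs after the values were seen. By rule, values in each library are given for up to 16 members past the threshold with the largest change, the 5 with the highest mean, close paralogs of these and members whose call a scaling ends, and other lists give up to 4 genes with the smallest p. Members called only after scaling, Slc25a34, Slc25a35, Mcu, Mpc1, Timm10b and Myc lie outside that rule and were named after their values were seen. The values of 1 member and of 2 genes of the other lists are counted in the totals and not reported here.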

Additional observations from a re-analysis of the deposited data

How the results depend on the processing

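Of the SLC25 members, 2 rose and 8 fell in the deposited FPKM. With median-of-ratios scaling the counts were 7 and 4, with the replicate block 5 and 12, and with the replicate block and that scaling 8 and 5. Leaving out 1 library at a time gave 1 to 3 higher and 5 to 10 lower: 1 higher without any shNS library or shTet1 replicate 2, and 5 lower without replicate 1 or 2 of shNS or replicate 2 of shTet1. The falls of Slc25a5, Slc25a12, Slc25a13 and Slc25a33 and the rise of Slc25a24 were called in each of these 6 fits. Over all genes, 3469 were higher with the replicate block and scaling, against 2254, and 1698 to 2181 were higher and 2676 to 4007 lower with 1 library left out. The members' median of −0.13 became −0.01 with scaling, with or without the block, and −0.18 to −0.06 with 1 library left out. Directions changed for members not past the test alone. With scaling, with or without the block, Slc25a4 became 0.08, Slc25a51 0.04, Slc25a15 0.04 and Slc25a25 0.05. With 1 library left out, Slc25a25 ranged from −0.18 to 0.06, Slc25a30 from −0.07 to 0.10, Slc25a46 from −0.005 to 0.07 and Slc25a14 from −0.03 to 0.28. The cause of these changes was not tested. The pseudocount of 0.1 changed no member's call. Depth limits the 7 members below the filter, which rest on 3 to 66 reads per library.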
